A study of Mus musculus with 6 samples.

Results

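Complex I (NADH:ubiquinone oxidoreductase) was followed through its nuclear-encoded subunit genes in 4T1 cells, a mouse triple-negative mammary carcinoma line. The genes were chosen by name. They are all genes with a transcript cluster (a set of probes summarised to 1 value) that carries a single symbol of a set form. The symbol begins with Nduf, a letter a, b, c, s or v, and a number. A gene can have more than 1 cluster, and the cluster of highest mean level was used. This gave 32 genes of the 23385 tested, with assembly factors (Ndufaf) left out. The subunits Ndufs8, Ndufs1 and Ndufv1, which mark the complex, were all measured.

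The 4T1 cells had been cultured for 24 h with mouse bone marrow-derived macrophages polarised beforehand to a pro-inflammatory (PI, 3 arrays) or an anti-inflammatory (AI, 3 arrays) state. Macrophages came from individual mice. The tumour cells were the same line in both groups. Macrophages were depleted through CD11b before total RNA of the tumour fraction was hybridised to Affymetrix arrays. No 4T1 cells cultured alone were compared, so each value below sets PI against AI, and which co-culture moved it cannot be told. In bulk RNA, fewer cells of a type and less RNA per cell cannot be told apart either.

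Complex I is the entry point of the respiratory chain. It takes electrons from NADH through a flavin and a series of iron-sulphur clusters to ubiquinone, and pumps protons across the inner mitochondrial membrane. Its catalytic core is conserved from bacteria and is split between nuclear genes, which supply the arm that reaches into the matrix, and mitochondrial DNA, which supplies the proton-pumping membrane subunits. Accessory subunits surround this core and are needed for assembly or stability. The symbols do not follow that division exactly. Ndufs4 and Ndufv3 are accessory subunits in spite of their letters, Ndufa4 is now placed in complex IV, and Ndufa4l2 is a hypoxia-inducible relative that is no subunit of the assembled complex.

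Across arrays the deposited values, RMA levels on the log2 scale, correlated between 0.987 and 0.990 for any pair. The epithelial keratins Krt8 and Krt18 lay at percentiles 98.1 and 98.6 of all genes by mean level, and the other 7 epithelial markers between 41.8 and 69.7, with Krt19 and Cldn7 below the median. Of 20 macrophage markers, 3 lay above the median level (Cd14, Cd68 and Cx3cr1), and the depletion target Itgam was at percentile 14.4. RMA values have no zero, so absence cannot be read from them. The mean log2 level of the macrophage markers was 4.26 to 4.35 on the PI arrays and 4.23 to 4.29 on the AI arrays. Of these 20 markers 8 had a lower mean in PI (median log2 difference 0.0087), with Cd14 at -0.23 and Mpeg1 at 0.58, and none passed the test. The mean level of 8 fibroblast markers was 4.70 to 4.85 in PI and 4.69 to 4.80 in AI, and that of 9 epithelial markers 6.57 to 6.68 and 6.66 to 6.76. In each list the PI and AI ranges overlapped. Of the 9 epithelial markers 5 were lower in PI (median -0.11), and for Krt14 (-0.41), Epcam (-0.19) and Krt8 (-0.11) all PI arrays lay below the AI arrays, without passing the test. Their part in the results below was not tested.

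The promoters of 3 members are shown because they belong to the subunit with the smallest p-value (Ndufs8), to the subunit next to it in the electron path and in rank (Ndufs7), and to the member with the largest positive difference (Ndufa12). Each runs 5′ to 3′ from 250 bases before the annotated start to 50 bases after it, from RefSeq (GRCm38.p6). Capitals mark matches to the motifs searched.
Ndufs8, GRCm38.p6 chr19:3912725-3913024, minus strand: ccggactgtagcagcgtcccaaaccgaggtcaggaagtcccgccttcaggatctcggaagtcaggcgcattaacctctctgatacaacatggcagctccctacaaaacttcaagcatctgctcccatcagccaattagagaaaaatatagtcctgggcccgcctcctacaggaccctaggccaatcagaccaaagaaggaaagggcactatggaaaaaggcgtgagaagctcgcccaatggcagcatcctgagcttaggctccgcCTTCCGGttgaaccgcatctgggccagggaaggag
Ndufs7, GRCm38.p6 chr10:80249199-80249498, plus strand: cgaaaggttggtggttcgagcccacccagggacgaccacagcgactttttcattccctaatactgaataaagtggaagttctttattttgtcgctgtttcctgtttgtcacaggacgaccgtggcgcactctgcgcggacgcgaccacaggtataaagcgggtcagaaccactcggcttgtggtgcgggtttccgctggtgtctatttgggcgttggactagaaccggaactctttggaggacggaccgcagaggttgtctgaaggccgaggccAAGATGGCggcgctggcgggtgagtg
Ndufa12, GRCm38.p6 chr10:94198785-94199084, plus strand: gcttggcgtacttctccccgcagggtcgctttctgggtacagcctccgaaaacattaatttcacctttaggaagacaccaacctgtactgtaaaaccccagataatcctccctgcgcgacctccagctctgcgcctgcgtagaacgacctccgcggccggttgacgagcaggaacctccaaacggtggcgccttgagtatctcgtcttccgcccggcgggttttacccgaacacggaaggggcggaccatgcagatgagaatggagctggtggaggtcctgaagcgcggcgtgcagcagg

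The Ndufs8 window held an ETS/GABPA match on the reverse strand, the Ndufs7 window a YY1 match, and the Ndufa12 window no match. RefSeq promoters were matched for 27 of the 32 members, in 29 windows. Those without an entry included Ndufs1, Ndufa2, Ndufb9 and Ndufa4l2. Motifs were searched on both strands, and no matches of different motifs overlapped in these windows. The YY1 letters AAGATGGC stood in 6 of the 29 windows (20.7%), against 2.75% of 32851 windows of the same length. They were found for Ndufa3, Ndufa9, Ndufb8, Ndufc1, Ndufs4 and Ndufs7. The NRF1 letters GCGCATGCG stood in 2 windows (6.9%, Ndufa8 and Ndufa11), against 1.75%. The ETS/GABPA letters CCGGAAG stood in 4 (13.8%, against 8.86%), for Ndufs8, Ndufs3, Ndufb6 and Ndufb7. The E-box CACGTG stood in 3 (10.3%, against 7.15%) and the ERR letters AAGGTCA in 0 (against 4.72%). A match is a stretch of letters and no evidence of binding, and these members also had a higher GC content (median 59.0%, against 52.7%). The log2 fold changes (PI minus AI) of the members with a YY1 match ran from Ndufs7 at -0.15 to Ndufs4 at 0.016, the only positive value. Of all 32 members 22 were negative, and a link between a match and these values was not tested.

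None of the 32 members passed an adjusted p of 0.05 between PI and AI in limma, in either direction, while 0.0727% of all genes and 0.137% of the genes above the median level passed, all of them higher in PI. At an unadjusted p under 0.05 there was 1 member (3.1%), which was lower in PI, against 7.36% of all genes (3.31% lower in PI) and 6.94% of the genes above the median level (3.97% lower in PI). The log2 fold changes, PI minus AI, ran from -0.21 to 0.13, and 26 of the 32 were smaller than 0.1 in size. The 95% intervals, each for a single gene and not adjusted for the number of genes, reached down to -0.40 (Ndufa11) and up to 0.32 (Ndufa12).

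**Figure D1:**
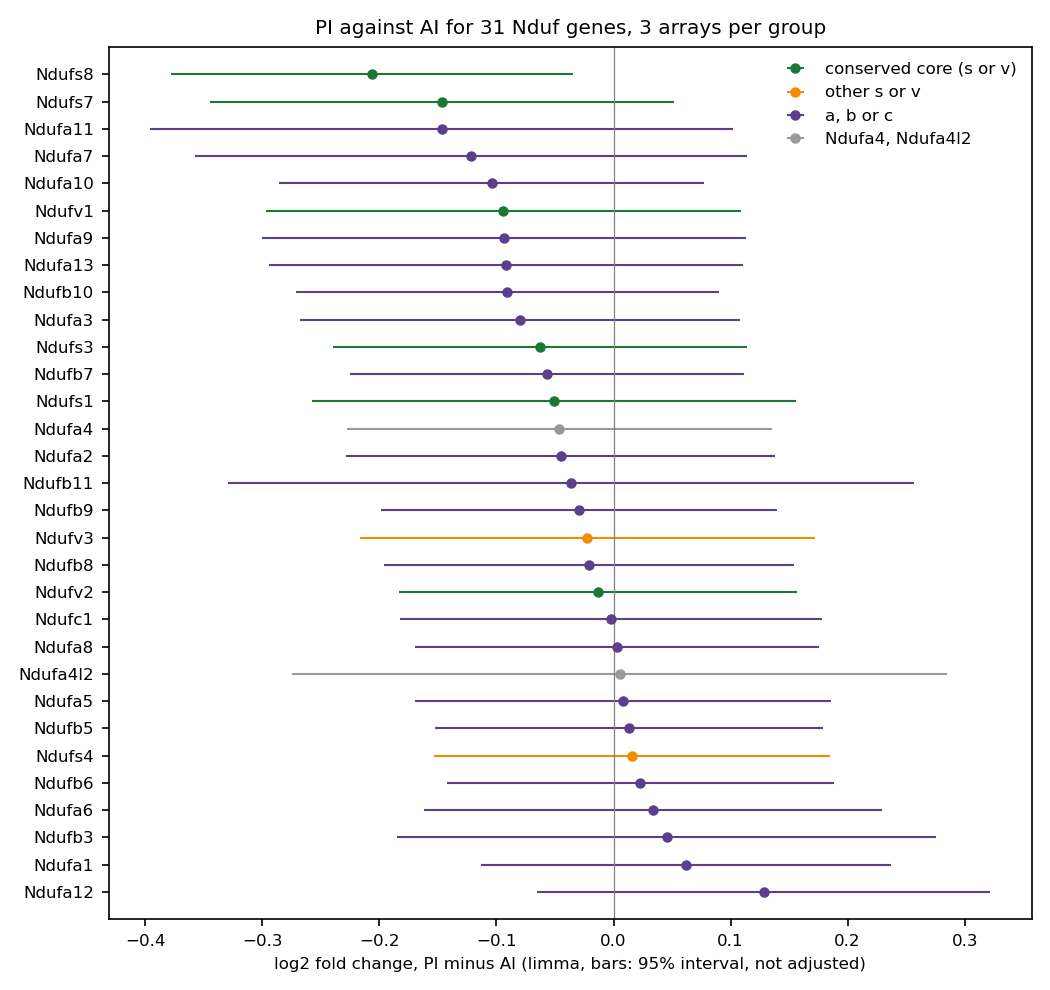
Log2 fold change of 31 of the 32 Nduf genes, PI minus AI, with 95% intervals from limma (3 arrays per group), coloured by class. All but the interval of Ndufs8 include 0, and the 6 conserved core subunits drawn (green) lie on the negative side, from -0.21 to -0.013, although Ndufv2 turns to 0.010 after cyclic loess normalisation and 0.0072 without PI replicate 1.

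Ndufs8, which holds a pair of iron-sulphur clusters on the path to ubiquinone (cluster 17361032, Entrez 225887), had the smallest p-value. Its log2 levels were 8.89, 8.97 and 8.93 on the PI arrays and 9.16, 9.11 and 9.14 on the AI arrays. All PI arrays lay below all AI arrays, and it was the 1 member whose difference exceeded the range within either group. The mean was 8.93 ± 0.04 in PI and 9.14 ± 0.03 in AI (SD, n = 3 each), a log2 fold change of -0.21 with a 95% interval of -0.38 to -0.035. In linear terms PI was 13.3% below AI (2.4% to 23.1%). The difference did not pass in limma across all genes (adjusted p = 0.627, unadjusted 0.0246). The unadjusted limma value lay above 0.05, between 0.0504 and 0.0681, without PI replicate 1, PI replicate 3, AI replicate 1 or AI replicate 3. It was 0.00347 with an intensity trend and robust variance in limma, and 0.01 in limma over the genes above the median level. An unmoderated linear model gave an unadjusted 0.00223. None of these passed after adjustment. In the authors' deposited table Ndufs8 has a fold of 1.15, AI over PI, with a q-value of 0.552.

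Ndufs7 passes electrons from the last iron-sulphur cluster to ubiquinone. Its levels were 8.85, 8.78 and 8.88 in PI and 8.86, 9.04 and 9.04 in AI, so that AI replicate 1 lay among the PI arrays. Its log2 fold change was -0.15 (95% interval -0.34 to 0.052, limma adjusted p = 0.752). Ndufs3, a scaffold subunit of the same module and of the conserved core, had levels of 8.06, 7.97 and 7.94 in PI and 8.07, 8.07 and 8.03 in AI. PI replicate 1 lay among the AI arrays, and the log2 fold change was -0.063 (limma adjusted p = 0.882).

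At the NADH-oxidising end of the arm, Ndufv1 binds the flavin and accepts electrons from NADH. Its levels of 8.91, 8.78 and 8.98 in PI overlapped those of 8.97, 9.06 and 8.93 in AI, with a log2 fold change of -0.094 (95% interval -0.30 to 0.11, limma adjusted p = 0.843). It was -0.038 without PI replicate 2 and -0.058 without AI replicate 2. The lowest value with the processing changed or an array left out was -0.14. Ndufs1, the largest subunit of the matrix arm and a carrier of several iron-sulphur clusters, had 8.73, 8.82 and 8.86 in PI and 8.95, 8.89 and 8.73 in AI. AI replicate 3 was as low as the lowest PI array, and the log2 fold change was -0.051 (95% interval -0.26 to 0.16, limma adjusted p = 0.923). It ranged from -0.11 without AI replicate 3 to -0.0063 without AI replicate 1. Ndufv2, an iron-sulphur partner of Ndufv1, had 9.88, 9.96 and 9.93 in PI and 9.96, 9.94 and 9.91 in AI. The groups lay on top of each other (log2 fold change -0.013, limma adjusted p = 0.984), and the sign turned after cyclic loess normalisation (0.010) and without PI replicate 1 (0.0072).

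Among accessory subunits, 3 had PI arrays below all AI arrays without passing the test. Ndufa10, a subunit of the membrane arm beside the ND2 protein, had 10.72, 10.83 and 10.80 in PI and 10.86, 10.95 and 10.86 in AI (log2 fold change -0.10, limma adjusted p = 0.807). Ndufb10, in the distal membrane arm, had 8.75, 8.67 and 8.79 against 8.80, 8.81 and 8.88 (-0.091, limma adjusted p = 0.834). Ndufb7, also distal, was added after its values were seen, with 10.03, 10.05 and 10.10 against 10.12, 10.13 and 10.10 (-0.057, limma adjusted p = 0.887). The gap between the nearest PI and AI arrays was very small for both b subunits. With Ndufs8 these made 4 of 32 members whose groups did not overlap (12.5%), close to the 13.2% of all genes and the 15.5% of genes above the median level. All 4 had PI below AI, which held for 7.32% of all genes and for 10.7% of those above the median level. PI above AI was found for 0 members, against 5.85% and 4.88%.

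The opposite direction was largest for Ndufa12, an accessory subunit of the matrix arm. Its levels were 10.70, 10.72 and 10.56 in PI and 10.48, 10.52 and 10.59 in AI. PI replicate 3 lay below the highest AI array, and the log2 fold change was 0.13 (95% interval -0.065 to 0.32, limma adjusted p = 0.777). A second, dimmer cluster of Ndufa12 had 0.14, with all PI arrays above the AI arrays. Ndufa11, a membrane-arm subunit, likewise had 2 clusters of the same sign. The brighter was at -0.15 with overlapping groups (10.75, 10.78 and 10.95 in PI, 10.81, 10.99 and 11.13 in AI, limma adjusted p = 0.8). The dimmer was at -0.20, with all PI arrays below the AI arrays (adjusted p = 0.801 in limma over all clusters). For Ndufa8, an intermembrane-space subunit, the clusters gave 0.0030 and 0.0020.

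The other named accessory subunits had overlapping groups. Ndufa7, of the matrix arm, was at -0.12, with AI replicate 3 the highest array (9.15) and PI replicate 2 next (8.98). Ndufa13, also known as GRIM-19, was at -0.092, and PI replicate 2 was the lowest array (10.20, against 10.39 to 10.47 on all others). Ndufa9 was at -0.094, with PI replicate 1 lowest (10.04), and Ndufa3 at -0.080. Positive values were found for Ndufa1 (0.062), Ndufb3 (0.046) and Ndufa6 (0.034). For Ndufb3 the PI arrays (8.43, 8.63 and 8.31) spread on both sides of the AI arrays (8.43, 8.39 and 8.41), and the value was -0.043 without PI replicate 2. Ndufa4 was at -0.046. Ndufa4l2, at percentile 40.8 by level, was the 1 member below the median of all genes and had 0.0054, with a sign that changed with the normalisation. The remaining 11 members lay between -0.057 and 0.023.

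**Figure D2:**
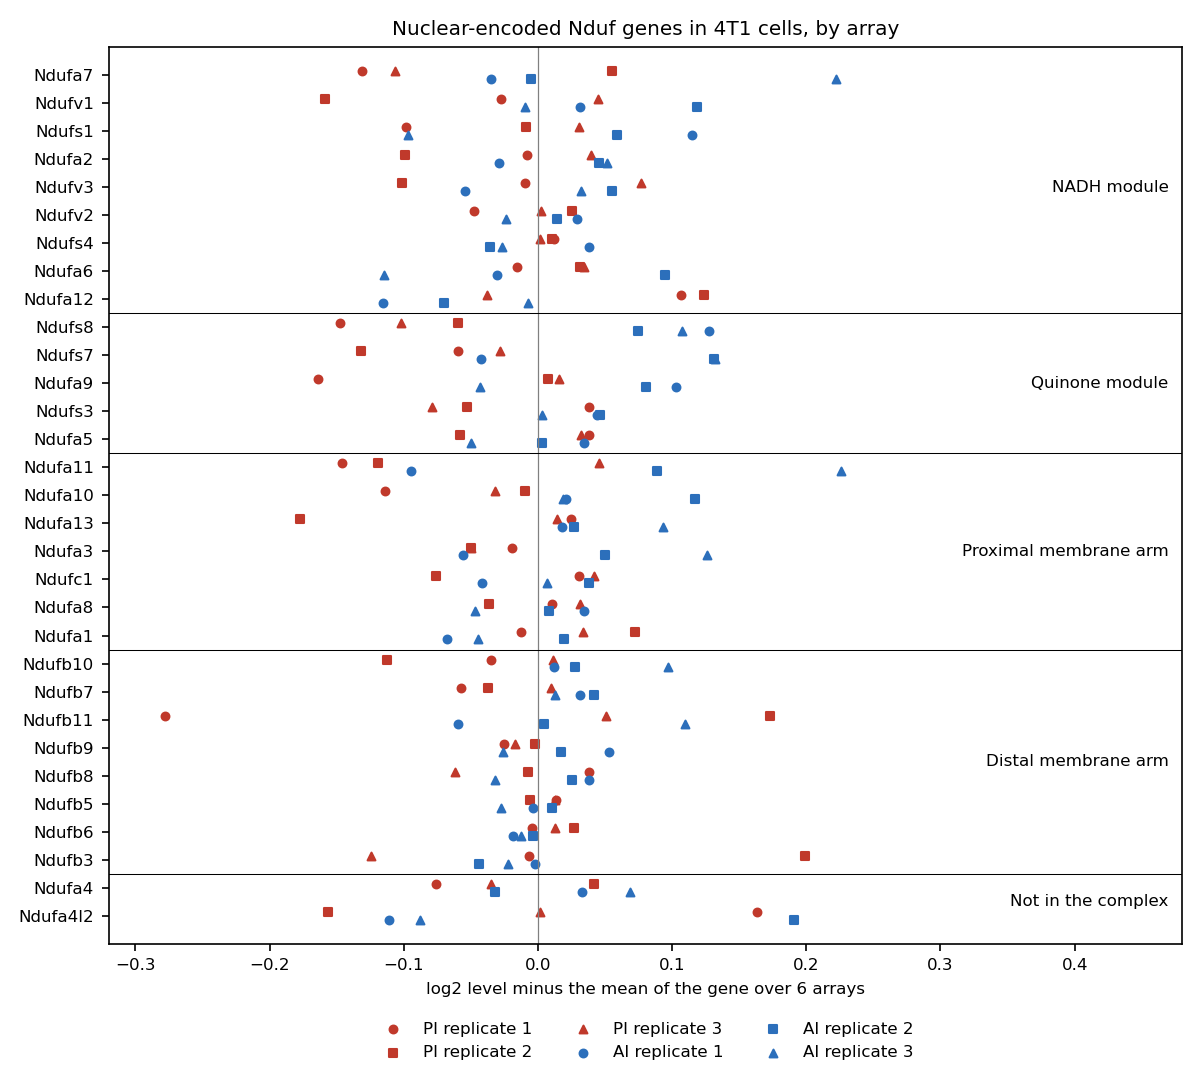
Log2 level of 31 of the 32 Nduf genes on each array minus the gene's mean over the 6 arrays, PI in red and AI in blue, grouped by position in the complex. Red and blue points are mixed in nearly all genes, Ndufs8 is separated by the widest gap, and single arrays such as PI replicate 1 for Ndufb11 stand away from their group.

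Subunits named s or v, taken as the core by letter, were set beside those named a, b or c. Of 9 s and v members, 8 had negative log2 fold changes, with a median of -0.063. Of 23 a, b and c members, 14 were negative, with a median of -0.029. With the 7 conserved core subunits in place of the letters, all 7 were negative (6 of 7 after cyclic loess or without PI replicate 1) with a median of -0.094, and the other 23 subunits had a median of -0.022. The median of the 7 ranged from -0.058 without AI replicate 2 to -0.13 without PI replicate 3, and was -0.059 without PI replicate 2 and -0.061 without AI replicate 1. Members are not replicates, so no p-value is given for these medians. The difference between the s and v median and the a, b and c median was -0.034, and it was -0.0019 after cyclic loess and -0.012 after repeated quantile normalisation. Without AI replicate 3 it was -0.082, and without AI replicate 1 it was -0.015.

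By position in the complex, the quinone module had the lowest median, -0.096 over 6 members with 5 negative. The proximal membrane arm was at -0.080 over 7 members, the distal membrane arm at -0.025 over 8, and the NADH module at -0.022 over 9. This order was not fixed. Without AI replicate 1 the quinone module was at -0.063 and the proximal arm at -0.11, while the proximal arm was at -0.027 without PI replicate 2 and -0.037 without AI replicate 3. The medians of the NADH module and the distal arm were 0.010 and 0.0041 after cyclic loess. With an array left out, the NADH module ran from -0.067 to -0.0063 and the distal arm from -0.039 to -0.0070. The quinone module holds 4 of the 7 conserved core subunits, so these are not separate observations.

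Over all 32 members the median was -0.041, a PI level 2.8% below AI, and 22 members were negative (68.8%). Over all genes tested the median was -0.0080, with 52.7% negative. Over the brighter 11692 genes, to which 31 of the 32 members belong, the median was -0.030, with 61.6% negative. After cyclic loess 19 of 32 members were negative, against 51.4% of all genes. After repeated quantile normalisation 20 members were, against 52.8%. Centring the arrays on their medians moved the log2 fold change of every gene down by the same amount. Then 29 of 32 members were negative, against 64.3% of all genes, whose median moved from -0.0080 to -0.046. No such share was taken for the brighter genes alone.

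The small shift was not the same on every array. Each member's deviation from its own mean was taken, and the median over members found per array. For the s and v members it was -0.048, -0.053 and 0.0025 on PI replicates 1 to 3 and 0.038, 0.055 and -0.0094 on AI replicates 1 to 3. PI replicate 3 thus lay above AI replicate 3, and the groups overlapped. For the a, b and c members it was -0.013, -0.0073 and 0.012 in PI and -0.0033, 0.026 and -0.0072 in AI, again with overlap. Of the 32 members, 11 had their lowest value on PI replicate 1 and 9 on PI replicate 2, against 3 on PI replicate 3. The brighter genes as a whole had -0.029, 0.0041 and -0.017 in PI and 0.018, 0.013 and 0.011 in AI. In that larger group, to which 31 of the 32 members belong, all PI arrays lay below all AI arrays.

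**Figure D3:**
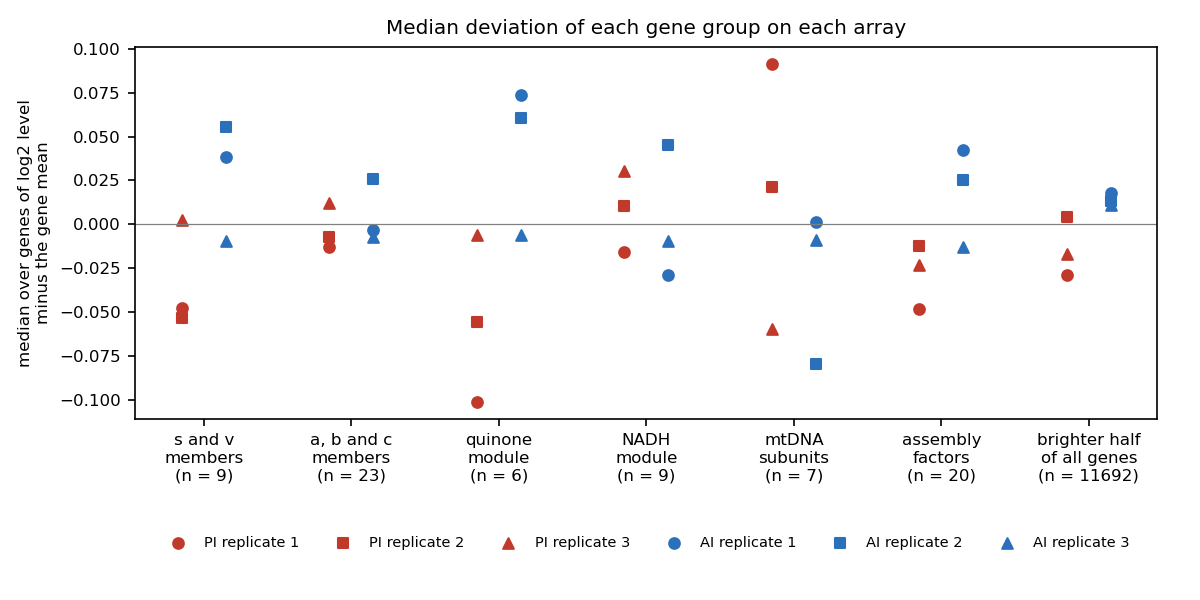
Median over genes of the log2 level minus the gene mean, per array, for groups of complex I genes and for the brighter genes of the array. The s and v members lie between -0.053 and 0.055, PI replicate 3 and AI replicate 3 lie near 0 in that group, and the mitochondrially encoded subunits are highest on PI replicate 1 (0.091) and lowest on AI replicate 2 (-0.079).

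The part of complex I encoded in mitochondrial DNA was measured by 7 clusters, listed as ND1 to ND6 and ND4L. These encode the membrane subunits that pump protons, and most are cut from a shared transcript. None passed the test, and all 7 log2 fold changes were positive, from 0.017 to 0.099 (ND6), with a median of 0.040. ND6 had levels of 12.80, 12.66 and 12.68 in PI and 12.59, 12.58 and 12.66 in AI (limma adjusted p = 0.822). PI replicate 2 and AI replicate 3 had the same value. ND4L had 0.082 (limma adjusted p = 0.865). Its cluster number (17221871) lies apart from those of the others (17532603 to 17532649), and whether it measures the mitochondrial gene was not tested. All 7 lay at percentiles 99.6 to 99.9 by level. The signs of the 7 values were not stable, since 2 of the 7 were negative without PI replicate 1 or without AI replicate 2. When arrays were centred, which lowers every gene's value by the same amount, 3 of the 7 were negative. PI replicate 1 was the array where these genes stood highest and many nuclear-encoded members lowest.

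Assembly factors, which build the complex, had a median of -0.097 over 20 of 21 listed genes, with 17 negative and none past the test. The list also holds Ndufab1, the acyl carrier protein and an accessory subunit of the assembled complex (-0.11), and without it 16 of 19 genes were negative, with a median of -0.088. The median of these 19 genes was -0.047 after repeated quantile normalisation, -0.054 after cyclic loess and -0.13 when arrays were centred. Ndufaf4, with 8.10, 8.29 and 8.004 in PI and 8.33, 8.30 and 8.32 in AI, had -0.19 (limma adjusted p = 0.717). Its PI arrays lay below its AI arrays, although PI replicate 2 and AI replicate 2 were close. Tmem126b, a membrane-arm assembly factor, had -0.18 with overlapping groups (limma adjusted p = 0.752). Regulators of mitochondrial gene expression had a median of -0.084 over 13 genes, with 9 negative and none past the test. That median was -0.026 without AI replicate 1, -0.054 without PI replicate 3 and -0.056 after cyclic loess. Tfb1m, a mitochondrial rRNA methyltransferase, had -0.32, with 6.74, 6.65 and 6.46 in PI and 6.87, 7.05 and 6.89 in AI, all PI arrays below the AI arrays (limma adjusted p = 0.584). The coactivator Ppargc1a had 0.22 at percentile 7.1 by level, all PI arrays above the AI arrays (limma adjusted p = 0.667).

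Of the other respiratory complexes, II, III and IV gave medians below that of complex I (-0.041) and V a median above it, and none of their genes passed. Complex II was at -0.085 (4 of 4 negative, Sdhb -0.14 and Sdha -0.083), and complex III at -0.087 (7 of 8 negative, Uqcrh -0.18 and Cyc1 -0.13). Complex IV was at -0.050 (6 of 8, Cox4i1 -0.094 and Cox5a -0.094) and complex V, the ATP synthase, at -0.023 (10 of 14, Atp5d -0.15 and Atp5l 0.12). After cyclic loess complex II was at -0.059 and complex III at -0.062. The medians of complexes IV and V were not stable. Without AI replicate 3 complex IV was at 0.0050, with 3 of 8 negative. Complex V was at -0.0020 after cyclic loess, at -0.0004 with PI replicate 2 left out (7 of 14 negative), at -0.0062 when PI replicate 1 was dropped and at -0.015 when AI replicate 1 was. Among alternative NADH enzymes and supercomplex partners, 5 of 6 were negative with a median of -0.089, including Aifm2, a ubiquinone reductase outside the respiratory chain, at -0.26 and Chchd4, an import factor, at -0.13. Whether complex I differs from these lists was not tested.

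**Figure D4:**
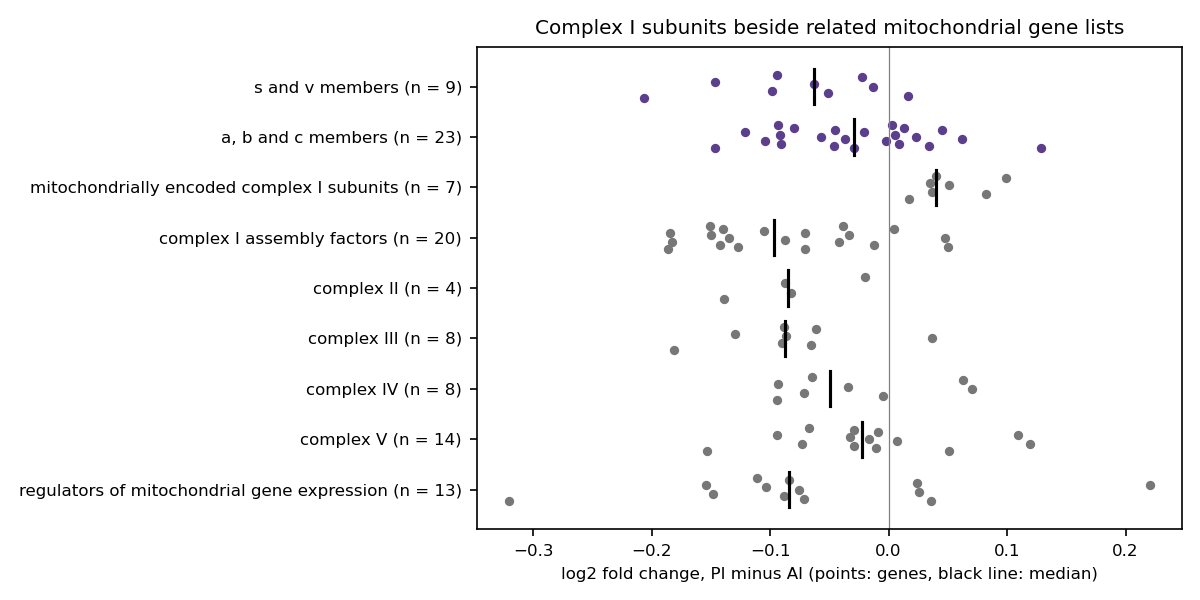
Log2 fold changes, PI minus AI, of complex I subunits by letter class (purple) and of related mitochondrial gene lists (grey), with a black line at each median. The medians lie between -0.097 (assembly factors) and 0.040 (mitochondrially encoded subunits), and single genes reach from -0.32 (Tfb1m) to 0.22 (Ppargc1a).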

How the data were processed

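Expression levels on the log2 scale were measured on Affymetrix arrays in 3 PI and 3 AI samples and deposited by the authors. The submitters' processing notes name Affymetrix Expression Console and RMA, with no version. RMA normalises arrays to a shared distribution and can compress small differences. The build behind the annotation is not given in the sources used here. Both deposited tables held the same log2 values (0 differing). One deposited table adds a p-value, a q-value and a fold per cluster from the authors, without naming the test. The fold equalled AI over PI for all 41345 clusters.

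The 24724 clusters with 1 symbol were named through a RefSeq table (GRCm38.p6, 23652 matched, no member renamed) and reduced to the cluster of highest mean per gene. PI and AI were compared with limma 3.58.1 (R 4.3.3) over 23385 genes, two-sided, with Benjamini-Hochberg adjustment and no filter. The fit was also run on simulated normal data with planted differences larger than that of any member. Its power at the sizes found here was not tested. Figures were drawn in Python 3.11.15.

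Members and lists were chosen with earlier results of these data known. Named members are the conserved core, Ndufa4, Ndufa4l2, the 12 of smallest p, the 4 largest changes each way and those with several clusters. The values of 1 named member and the matches to 1 motif are not reported here, and counts and medians include that member. Members were assigned to modules of the complex from general knowledge. The number of arrays limits precision: the median 95% interval of members reached 0.18 to either side. No scan date or batch was given.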

Additional observations from a re-analysis of the deposited data

How the results depend on the processing

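The count of 0 members past the threshold held under all alternatives that kept the 0.05 adjusted threshold and at an adjusted p under 0.1, and 1 member (Ndufs8) had an unadjusted p under 0.05. With an intensity trend and robust variance in limma, 3 members (9.4%) had an unadjusted p under 0.05, against 8.0% of all genes. Over all genes 17 passed, and 1 to 76 did under the alternatives. The same count of 0 was found for the 80 genes of related lists. No source says that equal replicate numbers mark the same mouse. Deviations from the group means correlated at 0.041, 0.006 and 0.057 between same-numbered arrays and at -0.075 to 0.038 between others. PI replicate 1 and PI replicate 3 correlated best with their own number, and PI replicate 2 did not. With the replicate block, 0 members and 1 gene in all (17 without it) passed, and Ndufs8 had an adjusted p of 0.67 in limma (unadjusted 0.0529). Ndufs8 ranged from -0.24 to -0.18 over 16 alternatives, with adjusted p from 0.324 to 0.818. Centring subtracts 1 value per array, so it moved every gene's log2 fold change by the same amount, and the member median to -0.079. That median stayed between -0.053 and -0.030 when single arrays were left out, with 21 to 24 negative members. Members without overlap were 7 when arrays were centred (21.9%, against 15.2% of all genes). With an array left out they were 7 to 10 (21.9% to 31.2%), against 22.0% to 24.5% of all genes. Fewer arrays raise the share for all genes too. The s and v median minus the a, b and c median was -0.012 after quantile normalisation, -0.0019 after cyclic loess and -0.072 for the 7 conserved subunits, and -0.082 to -0.015 with an array left out. Apart from the uniform shift after centring, the cause of these moves was not tested. Medians of modules and of the assembly list without Ndufab1 were added after seeing the data. Of 335 values for 21 named members, 15 changed sign, for 5 members. Ndufa4l2 was -0.027 after quantile normalisation, -0.033 after centring and -0.039 after cyclic loess, and with an array left out it ran from -0.075 to 0.10 (-0.049 without AI replicate 1 and -0.037 without AI replicate 3). Ndufa8 was -0.035 after centring, and -0.0013, -0.012 and -0.020 without PI replicate 1, PI replicate 3 or AI replicate 3 (up to 0.022 with another array left out). Ndufa6 was -0.0046 after centring and -0.015 to 0.089 with an array left out (lowest without AI replicate 3). Ndufb3 was -0.043 to 0.12 with an array left out (lowest without PI replicate 2). Ndufv2 was 0.010 after cyclic loess and -0.029 to 0.0072 with an array left out (highest without PI replicate 1).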

Other observations

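Further complex I subunits lay only on clusters that the deposited table shares with other genes, so their signal cannot be assigned to a single gene. They were compared over all 41345 clusters in limma, and none passed. The cluster of Ndufs5 and BC002163 had a log2 fold change of -0.22, with all PI arrays below the AI arrays (7.90 ± 0.20 against 8.12 ± 0.07, SD, n = 3 each; limma adjusted p = 0.804). A dimmer Ndufs5 cluster shared with LOC100504968 had -0.046. The cluster of Ndufb2 and Adck2 had -0.11, that of Ndufc2 and a pair of predicted genes -0.057, and that of Ndufb4 and a pair of predicted genes 0.041. For Ndufs6, an accessory subunit of the NADH module, the 2 shared clusters had -0.027 at the brighter and 0.047 at the dimmer.

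The core subunit Ndufs1 also appears on a dim cluster shared with the predicted gene Gm11602, at 5.86 ± 0.16 in PI and 5.62 ± 0.15 in AI (SD, n = 3 each). Its log2 fold change was 0.24 (95% interval -0.054 to 0.54, limma adjusted p = 0.797), opposite in sign to the -0.051 of the cluster that carries Ndufs1 alone. Which of these genes the shared cluster measures was not tested.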
